A study of Homo sapiens with 5 samples.

Results

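The study behind these data made 2 control libraries, and the comparison described here sets one against the other: TOV21G cells infected with a control hairpin (shControl) and TOV21G cells given the drug vehicle. TOV21G is an established human ovarian clear cell carcinoma line, and the study concerned ovarian cancers with ARID1A mutations and the deacetylase HDAC6. The rule took every gene with at least 5 CPM (counts scaled to a common library total) in either control library, which kept 10909 of the 28442 gene rows, and 2 of the 5 libraries. The other 3 libraries, 1 per treatment, came from cells infected with a hairpin against HDAC6 (shHDAC6) and from cells given the HDAC6 inhibitors ACY1215 or CAY10603. From the treatment that each label names, shControl and shHDAC6 are grouped here as an shRNA experiment. Vehicle, ACY1215 and CAY10603 are grouped as a drug experiment. Cells that carried virus were selected in 1 µg/ml puromycin, per the labels' protocols. The vehicle column is headed DMSO in the deposited table. The hairpin used for shHDAC6 among the pair that the labels name, the sequence of the control hairpin, and all doses and times are not stated by the labels. All 5 libraries share the same cell line and medium. No more than 1 library stands on each side of the comparison, so it has no replicate check, no test is given for it, and intervals on its ratios are exact binomial intervals at 95% that cover counting error only.

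A short hairpin RNA is transcribed in the cell, cut by Dicer and loaded into Argonaute, and a control hairpin passes through that machinery without a matching target. Infection, integration of the vector and antibiotic selection come with it, while the vehicle is only the solvent in which a drug is dissolved. HDAC6 is a cytoplasmic deacetylase that acts on alpha-tubulin, and ARID1A is part of SWI/SNF, a complex that moves nucleosomes.

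The libraries held 57442767 counts in shControl and 43498805 in vehicle, and 48776359 to 54620960 in the other 3. HDAC6 itself, the gene the study targeted, was at 49.0 CPM in shControl, 50.1 in vehicle, 29.3 in shHDAC6, 32.9 in ACY1215 and 47.9 in CAY10603. The controls were close to each other at HDAC6, with a log2 ratio of shControl over vehicle of -0.03 (interval -0.11 to 0.05), and shHDAC6 and ACY1215 were below both. ARID1A was at 9.43 CPM in shControl and 9.27 in vehicle, a log2 ratio of 0.02 (-0.16 to 0.21). The deeper shControl library had fewer gene rows with any count, 18571 against 22189 in vehicle. Olfactory receptor genes, which serve odour sensing in the nose, made the same contrast: their 375 rows summed to 0.886 CPM (0.658 to 1.17) in shControl and 13.3 CPM (12.2 to 14.4) in vehicle. The sum was 0.934 CPM in shHDAC6, 4.65 in ACY1215 and 6.19 in CAY10603, so both shRNA libraries were low, the inhibitor libraries lay between and vehicle was highest.

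Between the controls, 198 of 10909 genes (1.82%) were at least 2-fold apart, which is 1 on the log2 scale. Of these, 79 (0.724%) were higher in shControl and 119 (1.09%) lower. The median log2 ratio over all genes past the floor was 0.07, 6667 genes (61.1%) were higher in shControl at any size, and 92.2% of genes lay within 1.5-fold. The lower side reached much further: 70 of the 119 lower genes were at least 4-fold apart. The whole counting interval was past 2-fold for 99 of the 119 lower genes and 45 of the 79 higher genes. With the authors' FPKM values in place of CPM, all 119 and all 79 kept their direction, and 116 of the lower and 62 of the higher genes stayed at least 2-fold apart. Just inside the floor stood ARMC5, at 5.02 CPM in shControl and 4.10 in vehicle, and just outside stood ALPK2, at 5.0 and 4.65 CPM.

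**Figure D1:**
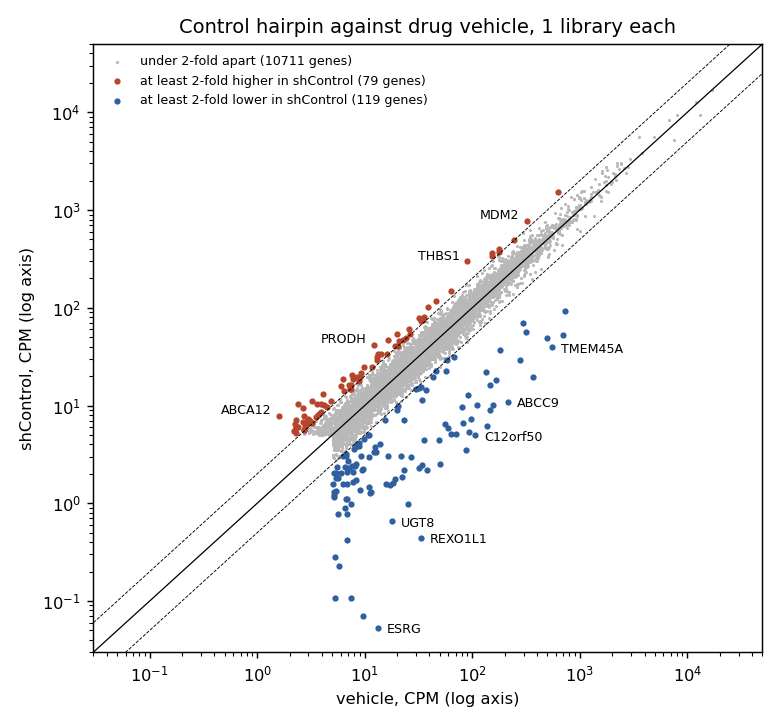
Each point is 1 of 10909 genes, with its level in vehicle on the x axis and in shControl on the y axis, both as CPM on log axes; dashed lines mark 2-fold. The 79 higher genes stay near the upper line, while the 119 lower genes spread far below the lower one, down to ESRG at 0.0532 CPM in shControl and 13.2 CPM in vehicle.

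The lower genes were led by transcripts that were low in both shRNA libraries and moderate to high in vehicle. TMEM45A, a gene for a transmembrane protein, was at 39.4 CPM in shControl, 551 in vehicle, 41.0 in shHDAC6, 179 in ACY1215 and 233 in CAY10603. ABCC9, a subunit of ATP-sensitive potassium channels, was at 10.99, 214, 13.0, 75.9 and 120.5 CPM in the same order. UGDH-AS1, a noncoding RNA antisense to UGDH, was at 19.6, 364, 18.0, 116 and 161 CPM. In each of these 3 genes the shRNA libraries were close together, vehicle was highest, and the inhibitor libraries lay between with no overlap. The log2 ratio of shControl over vehicle was -3.80 for TMEM45A (-3.87 to -3.74), -4.28 for ABCC9 (-4.40 to -4.16) and -4.21 for UGDH-AS1 (-4.30 to -4.12). Whether the authors counted by strand is not given in the sources used here, so reads of UGDH-AS1 and of its sense partner cannot be told apart.

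Single transcripts among the lower genes share sequence with many other genes. Stretches of 30 bases found in at least 10 genes made up 29.7% of the sequence of UGDH-AS1 and 21.0% of that of TMEM45A. The sequences were GENCODE transcripts on GRCh38, which is not the authors' build. These shares were the highest among the matched genes at least 4-fold lower, whose median was 3.35%. Over all matched genes past the floor the median was 0.302% and the highest 84.4%, and PCDHA4, a higher gene, was at 23.3%. As a check over the lower genes this is void, because 34 of the 70 rows at least 4-fold lower matched a transcript by symbol.

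Other lower transcripts kept the order of libraries seen above. KCNQ1OT1, a long noncoding RNA antisense to the potassium channel gene KCNQ1, was at 92.9 CPM in shControl, 725 in vehicle, 88.5 in shHDAC6, 274 in ACY1215 and 376 in CAY10603. MORC4, a zinc finger ATPase of the nucleus, was at 69.2, 295, 67.3, 155 and 177 CPM. TBC1D8B, a member of a family that acts on Rab GTPases, was at 18.1, 165, 14.9, 57.2 and 78.2 CPM. All 3 were lowest in the shRNA libraries and highest in vehicle, with log2 ratios of -2.96, -2.09 and -3.19.

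The most extreme ratios belonged to low transcripts. ESRG, a noncoding RNA named for its expression in embryonic stem cells, had 3 counts in shControl and 598 in vehicle, a log2 ratio of -7.16 with an interval of -10.23 to -6.40. REXO1L1, a gene with many near-identical copies among which reads can be split, was at 0.443 CPM in shControl and 33.5 in vehicle (log2 ratio -6.12). UGT8, which makes galactosylceramide, was at 0.656 and 17.8 CPM (-4.68), and C12orf50 at 4.98 and 106 CPM (-4.40). TTN, the giant sarcomere protein titin, was at 0.106 CPM in shControl and 5.26 in vehicle (-5.19). With the authors' FPKM plus 0.1 in place of CPM, the ratio of TTN was -1.63 and that of ESRG -5.31, while a prior count of 0.5 gave -5.50 and -7.71. The remaining 10 of the 15 lowest rows with an ordinary gene symbol included HHLA1, named for a nearby endogenous retrovirus (-3.89), TMEM212 (-3.75), ZNF471 (-3.50) and ARHGEF26-AS1 (-3.41). Over all rows, AK125288 (-6.46) and JF934746 (-5.67) stood among the 5 lowest. AK097143, with a ratio of -4.09, was at 5.39 CPM in shControl, 92.4 in vehicle, 4.48 in shHDAC6, 32.2 in ACY1215 and 47.6 in CAY10603.

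Rows named only by a clone accession made up 34 of the 119 lower rows, or 28.6%, against 1.51% of all rows past the floor and 3 of the 79 higher rows. Both shRNA libraries lay below all 3 drug libraries in 97 of the 119, or 81.5%, and in 10.9% of all genes. As shControl and vehicle chose these rows, only the other 3 libraries add to that count. The 70 rows at least 4-fold lower stood at a median of 10.2% of their vehicle level in shHDAC6, 36.6% in ACY1215 and 53.2% in CAY10603, and at 9.67% in shControl. The summed olfactory receptor rows stood at 7.04%, 35.0%, 46.7% and 6.69% of vehicle in those libraries. The olfactory count per base, times each row's effective length, came to a median of 0.930% of the vehicle level of the 119 rows, and subtracting it left 117 lower genes. Beyond that, the part of the olfactory signal in the difference of these rows was not tested. A further 8911 rows had no count in either shRNA library, and 3201 of them had one in vehicle, 2276 in ACY1215 and 2504 in CAY10603. The choice of these rows fixes that only drug libraries can hold a count, so just the order among those libraries is informative.

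**Figure D2:**
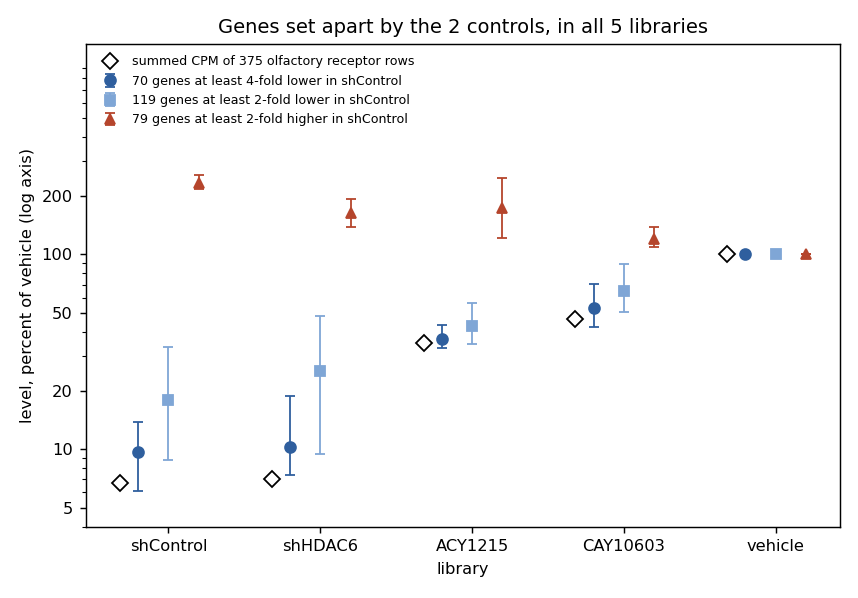
Levels in each library as a percent of vehicle on a log axis: markers give the median over the 70, 119 and 79 genes set apart by the controls, bars the 25th to 75th percentile, and open diamonds the summed CPM of 375 olfactory receptor rows. The lower genes and the olfactory rows take the same order of libraries, lowest in shControl and shHDAC6 and highest in vehicle, while the 79 higher genes have a median of 119% of vehicle in CAY10603 and 173% in ACY1215.

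The 79 higher genes, 73 of them with ordinary symbols, had smaller ratios and no single order of libraries. Both shRNA libraries were above all 3 drug libraries in 37 of them, 46.8% against 21% of all genes. As shControl and vehicle chose these genes, part of that count is fixed by the choice. ABCA12, a lipid transporter of the epidermis, was at 7.78 CPM in shControl, 1.59 in vehicle, 4.63 in shHDAC6, 4.27 in ACY1215 and 1.79 in CAY10603. It had the highest ratio, 2.27 (1.93 to 2.68), and shHDAC6 and ACY1215 were close to each other. PRODH, the mitochondrial proline dehydrogenase, was at 42.1, 12.2, 29.4, 17.6 and 14.4 CPM in the same order, with both shRNA libraries above the others and a ratio of 1.78 (1.65 to 1.92). SGK1, a kinase that regulates ion transport, was at 18.6, 6.23, 13.8, 5.45 and 6.99 CPM, again with the shRNA libraries apart from the drug libraries and a ratio of 1.57 (1.38 to 1.77). SGK3, its close relative, was at 9.36, 2.64, 12.4, 8.28 and 5.0 CPM, with a ratio of 1.81 (1.54 to 2.12).

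Other genes in the group were high in shControl and in ACY1215. THBS1, the secreted matrix protein thrombospondin-1, was at 298 CPM in shControl, 89.5 in vehicle, 111 in shHDAC6, 216 in ACY1215 and 110.1 in CAY10603. Its ratio between the controls was 1.74 (1.69 to 1.79) and that of shHDAC6 over CAY10603 was 0.02. IGFBP3, which binds insulin-like growth factors, was at 53.7, 20.1, 19.5, 71.8 and 26.2 CPM, a ratio of 1.42, and was higher in ACY1215 than in shControl. ZBED2, a zinc finger gene, was at 10.2, 2.38, 2.69, 6.25 and 4.61 CPM, a ratio of 2.09. INA, a neuronal intermediate filament, was at 103, 38.7, 55.3, 63.8 and 38.4 CPM, with a ratio of 1.41. STS, the steroid sulfatase, followed the experiments instead, and was at 46.8, 16.5, 29.2, 19.7 and 21.3 CPM with a ratio of 1.5. The list of the 15 highest closes with KIAA1653 (1.78), WDR63 (1.68), CKMT1A (1.52), STEAP3 (1.49) and CELF2 (1.42). CKMT1A has a near-identical copy, so its reads may be split.

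Targets of p53, the transcription factor that halts the cycle or starts death after stress, were mostly higher in shControl. Of 31 targets past the floor, 28 were higher and 3 lower, with a median log2 ratio of 0.57 against 0.07 over all genes, and 6 were at least 2-fold higher. CDKN1A, the cyclin-dependent kinase inhibitor p21, was at 337 CPM in shControl, 151 in vehicle, 326 in shHDAC6, 204 in ACY1215 and 154 in CAY10603. MDM2, the ubiquitin ligase that degrades p53, was at 775, 320.5, 476, 345 and 368 CPM. BTG2, an antiproliferative gene, was at 74.9, 34.6, 55.3, 34.2 and 34.4 CPM. In all 3 both shRNA libraries were above the drug libraries, and the ratios between the controls were 1.15 (1.11 to 1.19), 1.27 (1.25 to 1.30) and 1.11.

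The same separation of experiments held in most of the list. Both shRNA libraries were above all 3 drug libraries in 21 of the 31 targets, 67.7% against 21% of all genes. TP53I3, a quinone oxidoreductase, was at 49.0 and 44.0 CPM in shControl and shHDAC6 and at 24.1, 21.7 and 26.5 CPM in vehicle, ACY1215 and CAY10603. TRIM22 (1.08) and PLK3 (1.05) completed the members at least 2-fold higher. Among death genes, the ratio was 0.28 for BAX, 0.38 for BBC3 and 0.43 for FAS, and PMAIP1, which encodes the death activator NOXA, was lower, at 15.1 CPM in shControl and 25.2 in vehicle (-0.74). The median of the list in shHDAC6 over CAY10603, which shares no library with the controls, was 0.37.

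Of 8 cyclin-dependent kinase inhibitors and D cyclins, 6 were higher in shControl and 2 lower, with a median of 0.90. CCND1, the D cyclin that starts the cycle in many epithelia, was at 496 CPM in shControl, 244 in vehicle, 358 in shHDAC6, 329.5 in ACY1215 and 296 in CAY10603. CCND2 was at 396, 176, 321, 422 and 232 CPM, with vehicle lowest and ACY1215 highest. CDKN1B, the inhibitor p27, was lower in shControl, at 34.5 CPM against 55.9 in vehicle, and stood at 56.4 in shHDAC6 and 35.5 in ACY1215. CDKN2C, another inhibitor, was at 11.1 CPM in shControl and 18.1 in vehicle. The list holds CDKN1A, counted above among the p53 targets.

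**Figure D3:**
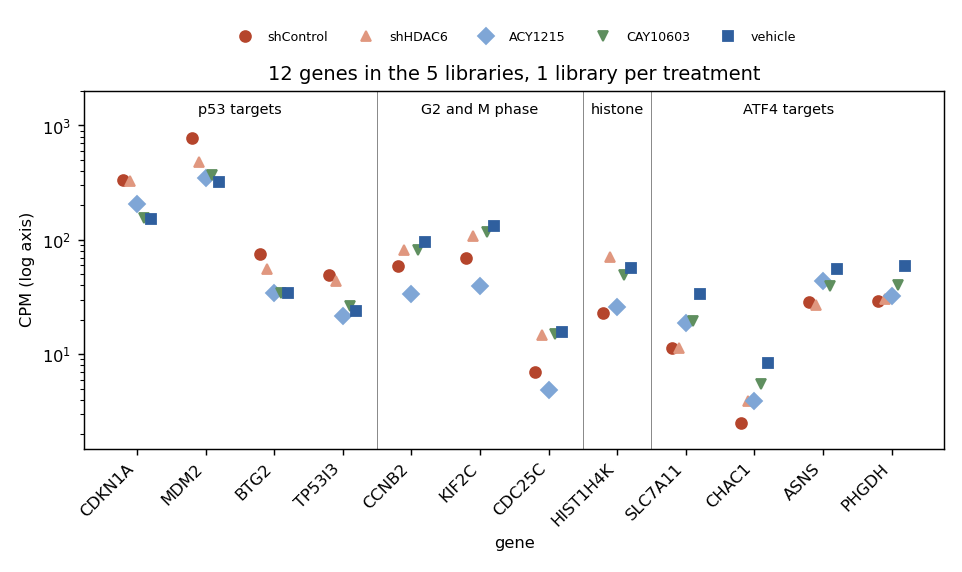
Level of 12 genes in CPM on a log axis, 1 marker per library. The 4 p53 targets separate shControl and shHDAC6 from the 3 drug libraries, whereas the G2 and M phase genes and the histone gene HIST1H4K set shControl and ACY1215 below the other 3.

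Genes of G2 and M phase, which build and run the mitotic spindle, were lower in shControl without exception in the list: 0 of 32 were higher and 32 lower, with a median log2 ratio of -0.49. KIF2C, a kinesin that takes microtubules apart at centromeres, was at 69.1 CPM in shControl, 131 in vehicle, 108 in shHDAC6, 39.3 in ACY1215 and 117 in CAY10603. CDC25C, the phosphatase that activates CDK1, was at 7.04, 15.5, 14.8, 4.87 and 15.2 CPM, and was the member at least 2-fold lower (-1.13, interval -1.32 to -0.96). CCNB2, a mitotic cyclin, was at 58.9, 96.3, 81.9, 33.5 and 82.2 CPM. In each, ACY1215 was lowest and shControl next, and shHDAC6, vehicle and CAY10603 lay above both. That order held in 32 of the 32 genes and in 9.64% of all genes past the floor. The summed level of the 32 genes was 3702 CPM in shControl, 5166 in vehicle, 4966 in shHDAC6, 2172 in ACY1215 and 5183 in CAY10603. The median ratio of shHDAC6 over CAY10603 was -0.04. In bulk RNA, fewer cells in a phase and less RNA per cell cannot be told apart.

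The size of the difference varied within the list. NUF2, of the kinetochore, had a log2 ratio of -0.95, AURKB, the Aurora kinase of the chromosomal passenger complex, of -0.91, CCNA2 of -0.70 and CDK1 of -0.67. CCNB1 (-0.18) and PLK1 (-0.23), central kinases or cyclins of mitotic entry, were among the smallest. Many G2 and M promoters carry a cell cycle homology region, a short element bound by repressors outside mitosis, and CCAAT boxes bound by NF-Y. As an approximation of the first, the letters TTTGAA were searched on both strands in the 250 bases before RefSeq starts on GRCh38.p14. They were present in 16 of 27 matched members, or 59.3%, in 8.34% of 8796 matched genes past the floor and in 13.3% of all 35116 promoters. CCAAT was present in 22 of the 27, or 81.5%, against 36.3% of matched genes. A match is a description of letters and says nothing of binding. The windows of 4 members follow, 5′ to 3′ on the strand of the gene with TTTGAA in capitals, because they show the letters in the list with the most uniform order of libraries.
BUB1B, chr15:40161026-40161068, plus strand: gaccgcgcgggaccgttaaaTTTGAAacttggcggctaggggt
CCNB2, chr15:59105097-59105142, plus strand: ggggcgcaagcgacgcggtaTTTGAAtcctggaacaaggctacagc
PLK1, chr16:23678840-23678885, plus strand: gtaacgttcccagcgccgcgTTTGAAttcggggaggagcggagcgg
KIF4A, chrX:70290050-70290095, plus strand: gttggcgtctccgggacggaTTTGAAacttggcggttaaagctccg

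These 4 differed in the ratio between the controls, from -0.71 for CCNB2 and -0.49 for BUB1B, a spindle checkpoint kinase, to -0.45 for KIF4A, a chromosome-bound kinesin, and -0.23 for PLK1.

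Most replication genes and histones were likewise lower in shControl and ACY1215 than in the other libraries. Of 37 DNA replication genes, 31 were lower in shControl and 6 higher, with a median of -0.23, and ACY1215 was lowest and shControl next in 29 of 37. PRIM1, the primase subunit that lays down RNA primers, had a log2 ratio of -0.75, RFC4, of the clamp loader, of -0.68, and CDT1, a licensing factor, of -0.64. The sliding clamp PCNA (0.09) and MCM2 of the helicase (-0.08) were close to the median of all genes. Replication-dependent histones, whose mRNAs are made in S phase and lack a poly(A) tail, were lower in 36 of 38 members, with a median of -0.66. HIST1H4K was at 22.8 CPM in shControl, 56.7 in vehicle, 70.6 in shHDAC6, 25.8 in ACY1215 and 49.8 in CAY10603, a ratio of -1.31. HIST1H4B was at 15.6, 33.1, 32.6, 14.9 and 32.3 CPM in the same order, a ratio of -1.08. In both, shControl and ACY1215 were the low libraries, as in 35 of the 38 members, against 12.8% of all genes. ACY1215 was lowest and shControl next in 33 of the 38, but not in HIST1H4K. HIST2H3C (0.37) and HIST3H2A (0.58) were higher. Histone genes have near-identical copies, so the value of a single one is uncertain. The list median in shHDAC6 over CAY10603 was 0.36, on the other side of 0.

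Targets of ATF4, the transcription factor that cells switch on when amino acids are short or proteins misfold, leaned lower in shControl: 18 of 28 were lower and 10 higher, with a median of -0.21. SLC7A11, the cystine importer, was at 11.4 CPM in shControl, 33.8 in vehicle, 11.4 in shHDAC6, 18.9 in ACY1215 and 19.5 in CAY10603, a ratio of -1.57 (-1.71 to -1.44). CHAC1, which degrades glutathione, was at 2.52, 8.35, 3.87, 3.92 and 5.45 CPM, a ratio of -1.71 (-2.02 to -1.45). ASNS, asparagine synthetase, was at 28.9, 55.9, 27.1, 43.4 and 39.7 CPM, a ratio of -0.95. Vehicle was the highest library in all 3, and in 15 of the 28 members, against 12.4% of all genes. DDIT3, the factor CHOP, had a ratio of -1.15 and PHGDH, which opens serine synthesis, of -1.0. ATF5 (0.68) went the other way. With CAY10603 in place of vehicle the median of the list was 0.0049, so its lean rests on the vehicle library.

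The composite element of ATF4 and C/EBP, TGATGNAA, was present on either strand within 250 bases before the start in 4 of 25 matched members, or 16%, and in 1.18% of matched genes past the floor. The 4 were AARS, ASNS, ATF3 and CHAC1, all lower in shControl. Windows of CHAC1, where the element lies on the opposite strand, and ASNS are shown on the strand of each gene, 5′ to 3′, element in capitals, since they are members with large ratios.
CHAC1, chr15:40953242-40953289, plus strand: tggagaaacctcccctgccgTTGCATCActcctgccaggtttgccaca
ASNS, chr7:97872449-97872496, minus strand: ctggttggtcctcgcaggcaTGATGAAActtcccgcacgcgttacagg

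**Figure D4:**
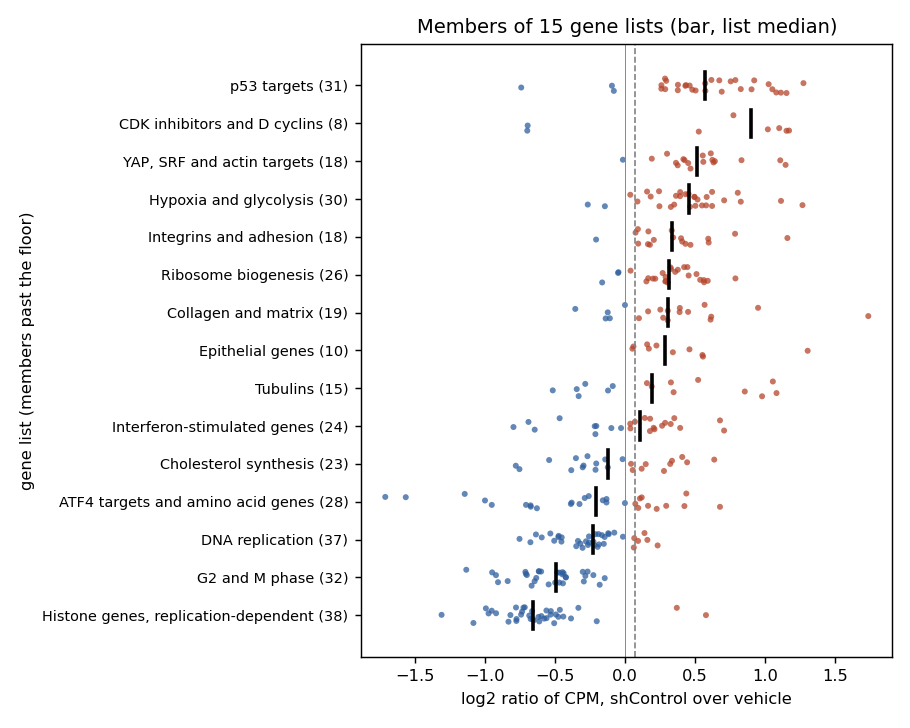
Each point is a member of 1 of 15 gene lists, placed by its log2 ratio of shControl over vehicle on the x axis; black bars are list medians, red and blue points are above and below 0, and the dashed line is the median of all genes, 0.07. The p53 targets lie mostly to the right (median 0.57), and G2 and M phase genes (-0.49) and histones (-0.66) to the left.

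Genes of hypoxia and glycolysis, many of them targets of HIF1, were higher in 28 of 30 members, with a median of 0.46. LDHA, which turns pyruvate into lactate, was at 1368 CPM in shControl, 838 in vehicle, 1264 in shHDAC6, 1725 in ACY1215 and 1192 in CAY10603, a ratio of 0.71. HK2, the first enzyme of glycolysis, was at 63.7, 35.9, 49.5, 68.7 and 46.8 CPM, a ratio of 0.83. ADM, a vasodilator peptide, was at 10.1, 4.16, 9.49, 10.7 and 5.70 CPM, a ratio of 1.27. Vehicle was lowest in all 3 and in 23 of the 30 members, against 21.1% of all genes. shControl and ACY1215 were the 2 highest libraries in 17 of 30, or 56.7%, against 16.4% of all genes. P4HA1, a collagen prolyl hydroxylase, was lower in shControl (-0.27), and VEGFA was at 133 and 119 CPM (0.16). The median of the list was 0.09 in shHDAC6 over CAY10603 and -0.36 in shHDAC6 over ACY1215.

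Cytoskeletal and adhesion genes leaned the same way, beside 61.1% of all genes higher in shControl and a median of 0.07. Targets of YAP and SRF, which sense the tension of the actin cytoskeleton, were higher in 17 of 18 members (median 0.51), with ANKRD1 at 1.15, FHL2 at 1.11, TPM2 at 0.83 and CYR61 at 0.62. shControl and ACY1215 were the 2 highest libraries in 9 of the 18, or 50%, against 16.4% of all genes. Integrins and adhesion genes were higher in 17 of 18 (median 0.34). L1CAM, a neural cell adhesion molecule also found in carcinomas, was at 79.9 CPM in shControl, 35.8 in vehicle, 66.7 in shHDAC6, 115 in ACY1215 and 47.9 in CAY10603, a ratio of 1.16. CD44, the hyaluronan receptor, had a ratio of 0.79. Collagen and matrix genes were higher in 14 of 19 (median 0.30), led by THBS1 with TGFBI at 0.95, while SPARC was lower (-0.36). All 10 epithelial genes past the floor were higher, with a median of 0.28, KRT19 at 1.30 and EPCAM at 0.06. In shHDAC6 over CAY10603 the median was 0.20 for YAP and SRF targets and -0.08 for integrins and adhesion. It was -0.11 for collagen and matrix and -0.02 for epithelial genes. In shHDAC6 over ACY1215 these 4 medians were -0.06, -0.73, -0.51 and 0.07.

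Tubulin genes, among them those of the alpha-tubulins that HDAC6 acts on, were higher in 9 of 15 and lower in 6, with a median of 0.19. That count is near the 61.1% of all genes that were higher. TUBB3, the neuronal beta-tubulin, was at 372 CPM in shControl, 176 in vehicle, 344 in shHDAC6, 318 in ACY1215 and 202 in CAY10603, a ratio of 1.08. TUBB2A was at 47.0, 22.6, 47.1, 32.8 and 26.8 CPM, a ratio of 1.06, and TUBA1A at 587, 298, 721, 500.1 and 418 CPM, a ratio of 0.98. In all 3 both shRNA libraries were above the drug libraries, as in 8 of the 15 members (53.3%, against 21% of all genes). Besides TUBA1A, the alpha-tubulin genes TUBA1C (0.33), TUBA1B (-0.09) and TUBA4A (-0.35) were not all higher. TUBE1, a centriolar tubulin, was lower (-0.52). TUBB2A shares most of its sequence with TUBB2B (0.35), so the split of reads between them is uncertain.

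The lists below, tied to delivery of a hairpin by a virus, had medians between the controls of 0.11 to 0.27. The median of all genes was 0.07, and 61.1% of them were higher in shControl. Of 24 interferon-stimulated genes, 15 were higher in shControl and 9 lower, with a median of 0.11 against 0.07 over all genes. IFITM1, which restricts entry of viruses, was at 37.8 CPM in shControl, 65.7 in vehicle, 40.0 in shHDAC6, 55.4 in ACY1215 and 52.1 in CAY10603, a ratio of -0.80. BST2, which tethers budding virions, had a ratio of -0.65 and DDX60 of -0.69, whereas SAMD9 (0.71) and ISG15 (0.39) were higher and IFIT1 was at -0.03. Of 12 sensors of double-stranded RNA and DNA, 10 were higher (median 0.19), and DHX58, a member of the RIG-I family, was lower (-0.62). The 17 genes of small RNA processing split 11 higher and 6 lower (median 0.16), with DICER1 at 0.16, DROSHA at 0.17, AGO1 at 0.37 and AGO2 at -0.07. With CAY10603 in place of vehicle that median was -0.0091. Drug efflux and metabolism genes were higher in 8 of 9 (median 0.27), with the transporters ABCB1 at 0.87 and ABCC5 at 0.67. Both shRNA libraries were above all 3 drug libraries in 2 of the 9, or 22.2%, against 21% of all genes. The median of that list in shHDAC6 over CAY10603 was 0.097, and ABCB1 was at 5.22 CPM in shHDAC6, 5.04 in vehicle and 7.08 in ACY1215.

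Among housekeeping lists, ribosomal proteins and the respiratory chain stayed near the median of all genes. Cytosolic ribosomal proteins split 42 to 42 (median 0.00), and the respiratory chain 28 higher to 18 lower (median 0.02). Ribosome biogenesis factors, which work in the nucleolus, were higher in 23 of 26 (median 0.31), with RRS1 at 0.79 and BOP1 at 0.56. Their median in shHDAC6 over CAY10603 was 0.0099. Heat shock proteins were higher in 17 of 19 (median 0.23), and HSP90AA1 was at 0.56. Autophagy and lysosome genes were higher in 23 of 26 (median 0.17) and TGF-β targets in 12 of 16 (0.27). NF-κB targets and chemokines were higher in 12 of 19 (0.24), near the 61.1% of all genes that were higher. Cholesterol synthesis genes were lower in 13 of 23 (median -0.12), with INSIG1 at -0.76. That median was 0.14 with CAY10603 in place of vehicle. Of 8 polymerase III and other structured RNAs, 6 were lower (median -0.40), among them RNU11 (-1.57), of the minor spliceosome, and RMRP (-0.39), while TERC, the RNA of telomerase, was higher (1.13).

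Differences that recur between other libraries of the same experiments were counted in shHDAC6 against CAY10603, which shares no library with the controls. Of the 119 genes at least 2-fold lower in shControl, 111 were lower in shHDAC6 than in CAY10603 and 76 at least 2-fold lower, which is 63.9% of the 119 and 63.9% of the 119 genes lower by that much in the second pair. Of the 79 higher genes, 66 were higher in shHDAC6 and 9 at least 2-fold higher, which is 11.4% of the 79 and 29% of the 31 such genes in the second pair. Across 10909 genes, which are not independent replicates, the log2 ratios of the pairs had a Pearson correlation of 0.48 and a Spearman correlation of 0.28. With ACY1215 in place of CAY10603, 60 of the 119 lower genes recurred, which is 50.4% of them and 22.5% of the 267 lower genes of that pair. Of the 79 higher genes 10 recurred, 12.7% of them and 2.91% of the 344 higher genes of that pair, while 11 were at least 2-fold apart in the opposite direction. Over all genes the Pearson correlation was then 0.11 and the Spearman correlation -0.07. Much of the recurrence lay in 56 rows 2 times higher in each drug library, which recur by that choice. Without them 20 of 63 lower genes (31.7%) recurred in shHDAC6 against CAY10603, with a Pearson correlation of 0.28. In shHDAC6 against ACY1215 it was 4 of 63 (6.35%), with a Pearson correlation of -0.11. The higher genes past 2-fold in the same direction in all 3 pairs were ANKRD2 and SPON2. ANKRD2 was at 6.81 CPM in shControl, 2.99 in vehicle, 5.47 in shHDAC6, 1.69 in ACY1215 and 2.34 in CAY10603, and SPON2, a secreted matrix protein, at 6.58, 3.26, 5.56, 2.02 and 2.16 CPM.

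**Figure D5:**
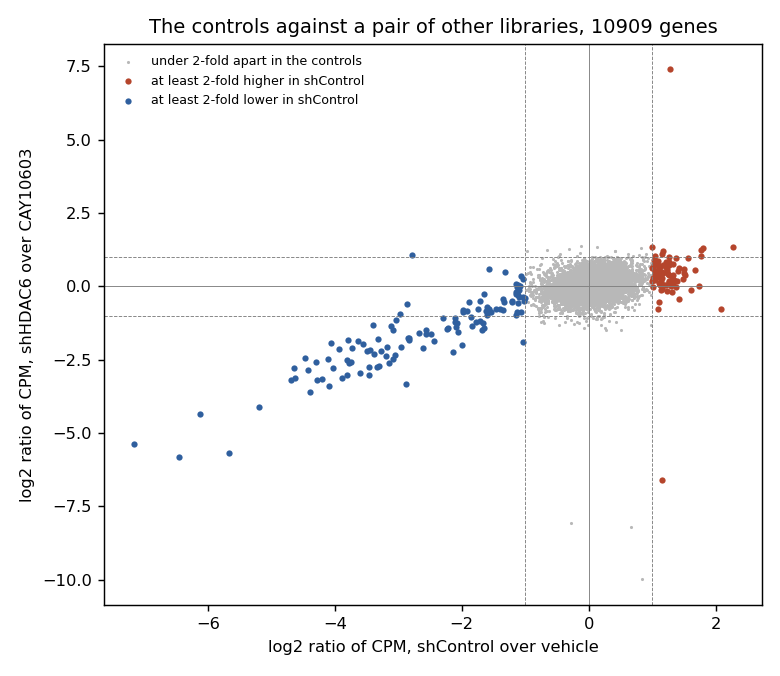
Each point is 1 of 10909 genes, with the log2 ratio of shControl over vehicle on the x axis and of shHDAC6 over CAY10603, a pair without shared libraries, on the y axis; dashed lines mark 2-fold. The 119 lower genes run into the lower left, where 76 are past 2-fold in both pairs, while 9 of the 79 higher genes are past 2-fold in both.

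A fit over all 5 libraries is the nearest the design comes to a test of experiment type. It used edgeR's quasi-likelihood test with HDAC6 status as a covariate and left 2 residual degrees of freedom. Nothing says that the libraries of an experiment are repeated cultures, so its p-values measure only the spread among these differently treated libraries. Of 13449 genes tested, 0 (0%) passed an adjusted p of 0.05 with the Benjamini-Hochberg adjustment, and the lowest adjusted p was 0.0593. At an unadjusted p under 0.05 stood 673 genes higher in the shRNA libraries (5%) and 508 lower (3.78%). The count depended on ACY1215: without that library the same test called 171 genes, 32 higher and 139 lower, whereas leaving out any of the others called 0 to 3. DESeq2 called 176, of which 31 were higher, and limma-voom 0.

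The genes with the lowest p included many set apart by the controls, which are themselves in the fit. UGDH-AS1 was lower in the shRNA libraries by a log2 difference of -3.47 (SE 0.34, adjusted p 0.0593 in edgeR's quasi-likelihood test). AK097143 had the lowest unadjusted edgeR p of all, 1.27e-05. The other 8 of the 10 lowest p on the lower side belonged to ADAMTSL3, C12orf50, TTN and TBC1D8B, and to the clone rows AK125288, JF934746, BC070093 and BC037952. On the higher side, SGK1 had a difference of 1.34 (SE 0.21, adjusted p 0.126), TP53I3 of 0.94 (SE 0.16, adjusted p 0.151) and CDKN1A of 0.99 (SE 0.18, adjusted p 0.192), all by edgeR's test. The other 7 of the 10 lowest p on that side belonged to PIK3R3, SLC25A13, BTG2, LMNA, FDXR, PRODH and NME1. LMNA, which encodes the A-type lamins of the nuclear envelope, was at 253 CPM in shControl, 158 in vehicle, 297 in shHDAC6, 177 in ACY1215 and 158 in CAY10603. SLC25A13, a mitochondrial aspartate and glutamate carrier, was at 73.0, 33.3, 59.4, 29.95 and 37.8 CPM. FDXR, a mitochondrial reductase and p53 target, was at 40.0, 23.2, 39.3, 24.0 and 24.3 CPM. All 3 separated the shRNA libraries from the drug libraries without overlap. Of the 31 p53 targets, 19 had an unadjusted p under 0.05 and were higher in the shRNA libraries (5% of all genes tested), and 1 was lower.

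Markers of the line were present in both controls. Of the clear cell markers, the transcription factor PAX8 was close (126 CPM in shControl and 118 in vehicle), and ANXA4, a calcium-binding annexin, was higher in shControl (329.8 and 179 CPM, log2 ratio 0.88). TFPI2, a protease inhibitor, was lower, at 448 and 619 CPM. GPX3, a secreted glutathione peroxidase, was at 10.9 and 10.6 CPM, and NAPSA, the protease napsin A, was at 0.142 and 0.176 CPM and so nearly absent from both. None of 16 leukocyte, 8 endothelial or 7 erythroid markers reached 5 CPM in either control, and CD3D, TYROBP and NKG7 had no count in any library. Of 10 fibroblast markers, ACTA2 (59.3 and 42.9 CPM) and COL1A2 (24.1 and 22.6 CPM) reached it. The leukocyte marker PTPRC had 2 counts in shControl and 61 in vehicle.

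Base composition moved with the ratio to a small degree. Over 10089 genes matched to a GENCODE transcript, the median log2 ratio was 0.03 in the fifth with the lowest GC content (median 38.2%) and 0.11 in the fifth with the highest (60.5%). The number of genes at least 2-fold higher was 3 at the lowest GC content and 26 at the highest. The part of base composition in the higher genes was not tested. For the lower genes this check is void, because 68 of 119 rows matched a transcript. Over 3515 genes, the median of effective length minus that in shControl was 4.76 bases in vehicle and 38.3 bases in shHDAC6.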

How the data were processed

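RNA of 5 TOV21G libraries, 1 per treatment, was sequenced after a kit for stranded total RNA, as the labels' protocols say. The authors deposited a gene table with expected counts and FPKM per library. The submitters' processing notes name RSEM 1.2.3, edgeR and hg19; the aligner, strand setting and annotation were not given in the sources used here. Of the columns, DMSO was taken for the vehicle sample, the sole vehicle in the labels, and 0 columns were left unassigned. Of the rows, 2 with no symbol were left out, and 27 have symbols turned into dates. Totals ran from 43498805 to 57442767 counts.

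Expected counts, as deposited by the authors, were rounded and scaled to CPM with TMM factors over all 5 libraries (R 4.3.3, edgeR 4.0.16). Log2 ratios used a prior count of 2, and a floor of 5 CPM in either control. Exact binomial intervals (95%) come from the counts without the prior. FPKM values, as deposited, entered 1 alternative with a pseudocount of 0.1. PCR reads without molecular identifiers are not independent molecules, so intervals cover counting error only. edgeR's quasi-likelihood fit over genes with at least 1 CPM in 2 libraries compared shRNA with drug libraries; limma 3.58.1 (voom) and DESeq2 1.42.0 were alternatives. On simulated counts of 13280 genes for that comparison, edgeR recovered 62% of 2-fold and 94% of 4-fold changes, with 3 false calls. The fit of the real libraries called 0 of 13449 genes. AK125288, with a log2 difference of -6.41, had an adjusted p of 0.0593 in edgeR's quasi-likelihood test. The simulated shares are therefore not the power of the fit on these libraries.

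The 50 gene lists, the members and the comparison were chosen with earlier results of these data known. Lists are given by counts and medians. Named genes were the 15 highest and 15 lowest ratios among ordinary symbols, the 5 extremes over all rows, up to 6 members of each list with the largest ratios plus its defining members, the 10 lowest p in each direction of the edgeR fit, and HDAC6 and ARID1A. ANKRD2, SPON2, KCNQ1OT1 and MORC4 were chosen after their values were seen. Some named genes and sequences are not reported here.

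Sequences come from GENCODE v29 transcripts (GRCh38) and RefSeq promoters (GRCh38.p14), matched by symbol; neither is the authors' build, so no coordinate was converted.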

Additional observations from a re-analysis of the deposited data

Results flagged for a closer look

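Replication-dependent histones had a median log2 ratio of -0.66 in shControl over vehicle, and of 0.36 in shHDAC6 over CAY10603 and 1.55 in shHDAC6 over ACY1215. The sign between the controls was opposite to that between the HDAC6-directed libraries of the same experiments. The difference was not tested, since each side is 1 library.

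Polymerase III and other structured RNAs had a median of -0.40 in shControl over vehicle, 0.55 in shHDAC6 over CAY10603 and 0.41 in shHDAC6 over ACY1215, again with opposite signs. RMRP was at 860.1 CPM in shControl, 1126 in vehicle, 2356 in shHDAC6, 1514 in ACY1215 and 1443 in CAY10603, and RPPH1, the RNA of RNase P, at 389, 423, 1378, 739.6 and 527 CPM. In both, shHDAC6 was the highest library and shControl the lowest. The difference was not tested.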

How the results depend on the processing

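No paired analysis was possible because the labels give no replicate numbers shared between the groups. The 198 genes at least 2-fold apart (79 higher, 119 lower) became 650 (167 and 483) with a floor of 1 CPM, 123 (52 and 71) with a floor of 10 CPM and 5595 (518 and 5077) with no floor, where most rows have few counts. The lower count was 76 without clone, LOC and date rows, and the higher count was 45 where the whole counting interval had to be past 2-fold. Alternatives chosen after seeing the data put the higher count at 41 with CAY10603 in place of vehicle and the lower count at 63 without rows 2 times higher in each drug library, a drop fixed by that choice since all 56 such rows are among the 119; shHDAC6 in place of shControl gave 58 and 118, and subtraction of the olfactory rate 87 and 117. The 85 genes that recurred in shHDAC6 against CAY10603 became 262 at 1 CPM and 2426 with no floor. For edgeR's 0 calls, DESeq2 gave 176, no filter on low counts 20, and leaving out 1 library 0 to 171.

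Scaling moved the median of all genes by -0.088 without TMM factors and by -0.085 with FPKM. Several list medians changed sign. Without TMM factors these were class I antigen presentation (-0.0722), endoplasmic reticulum folding (-0.0129), NRF2 targets (-0.0883), respiratory chain (-0.0643), SWI/SNF subunits (-0.0191), HDAC family (-0.0492) and splicing factors (-0.0081), and ARID1A (-0.0633). With FPKM they were class I (-0.0443), folding (-0.0245), NRF2 (-0.0919), fatty acid synthesis (-0.0345), respiratory chain (-0.0481) and splicing (-0.0057), and HDAC6 (0.034). RLE factors gave NRF2 -0.0058. CAY10603 in place of vehicle gave class I -0.018, small RNA machinery -0.0091, ATF4 targets 0.0049, NRF2 -0.0267 and cholesterol synthesis 0.1428. Not all of these lists began near 0. Small RNA machinery was at 0.16, fatty acid synthesis at 0.11, ATF4 targets at -0.21 and cholesterol synthesis at -0.12 in shControl over vehicle. The cause was not tested. The p53, G2 and M phase, histone and hypoxia medians kept their direction under all of these. The total counts limit genes near the floor most.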
